A study of Mus musculus with 6 samples.

Results

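The genes described here are 10 components and direct outputs of the circadian clock: Arntl, Clock, Npas2, Per2, Per3, Cry1, Cry2, Nr1d1, Nr1d2 and Dbp. They were taken by name from a table of 24972 gene rows, and all 10 were present and passed the minimum mean of 10 normalized read counts that 12477 rows reached. RNA came from ventricular cardiomyocytes of MX1gfp mice, a strain with a fluorescent reporter of the interferon-stimulated gene Mx1 that both groups carried. The vehicle group was 3 mice injected intraperitoneally with 100 microlitres of phosphate-buffered saline, and the doxorubicin group was 3 mice injected with doxorubicin at 25 mg per kg. Hearts were digested with collagenase 48 hours later, and myocytes were enriched by settling under gravity and not sorted. The labels give neither the age or sex of the mice nor the clock time or light schedule of injection and collection. Doxorubicin is an anthracycline that poisons topoisomerase II and is toxic to the heart.

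The mammalian clock is a feedback loop of transcription present in most cells, the cardiomyocyte included. ARNTL (also called BMAL1) pairs with CLOCK or with its relative NPAS2 and activates genes through E-box sequences, among them the period genes, the cryptochrome genes, Nr1d1, Nr1d2 and Dbp. PER and CRY proteins repress that activator, and NR1D1 and NR1D2 (REV-ERB alpha and beta) repress Arntl through ROR elements. Dbp encodes an activator of D-box genes. In a running clock, RNA of Arntl and RNA of Dbp peak at roughly opposite times of day.

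Promoter sequences of 9 of the 10 genes (all but Per2) were read from RefSeq for GRCm38.p6, as windows of 250 bases before and 50 after an annotated start. An E-box (CACGTG, which reads the same on both strands) lay in the window of 1 of these 9 genes, Cry1, against 8.09% of all 27025 genes in the table. The related E-prime box (CACGTT, either strand) lay in those of Cry1, Cry2 and Nr1d1 (5.44% of all genes), the core of a ROR element (TAGGTCA, either strand) in that of Arntl (2.97%), and a D-box (TTATGTAA or TTACGTAA, either strand) in that of Per3 (1.23%). No matches overlapped in these genes. Of 13 other clock genes with a window, 4 held an E-box: Bhlhe41, Ciart, Per1 and Tef. A match is a description of letters and not a measured binding site. The stretches below show each class of motif once or more, 5′ to 3′ on the gene's strand with the motifs in capitals, since the RNA of Per3, Cry1, Ciart, Per1 and Arntl is followed below.
Per3 (chr4:151044804-151044882, minus strand, both D-boxes): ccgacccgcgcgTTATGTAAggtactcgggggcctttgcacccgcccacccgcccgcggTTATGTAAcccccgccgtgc
Cry1 (chr10:85185097-85185145, minus strand, E-prime box then E-box): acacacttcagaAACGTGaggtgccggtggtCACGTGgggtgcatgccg
Ciart (chr3:95882255-95882356, minus strand, 3 E-boxes): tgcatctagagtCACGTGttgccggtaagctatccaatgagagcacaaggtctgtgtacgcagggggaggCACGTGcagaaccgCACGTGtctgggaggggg
Per1 (chr11:69098763-69098808, plus strand, E-box): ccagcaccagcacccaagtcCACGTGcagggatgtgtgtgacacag
Arntl (chr7:113207532-113207556, plus strand, ROR element core just after a start): ggcagaaagTAGGTCAgggacggag

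The libraries were not equally alike, and this bears on every value that follows. Vehicle libraries correlated with each other at a Spearman rho of 0.986 to 0.989 across genes, doxorubicin replicate 1 with them at 0.977 to 0.982, and doxorubicin replicates 2 and 3 with them at 0.860 to 0.914. Those correlations run over genes, which are no replicates, and only describe the libraries. Depth, estimated from the spacing of low values, was about 7707380 to 11371900 reads in vehicle and 3668150 to 6171420 in doxorubicin libraries, so depth and treatment cannot be told apart. All 10 cardiomyocyte markers were abundant in every library, the smallest value being 2441 normalized counts. Their summed level was 80.4%, 27.4% and 22.6% of the vehicle mean in doxorubicin replicates 1 to 3. Of the 10, 7 were below the vehicle range in replicate 1 and all 10 in replicates 2 and 3. The fall was uneven, single markers in replicate 2 standing at 0.102 to 0.705 times the vehicle mean. Summed macrophage markers (10 genes, none at 0) were 1.58, 2.59 and 5.90 times the vehicle mean. All 10 were above the vehicle range in replicates 1 and 3, and 9 in replicate 2. In replicate 3 single genes stood at 2.12 to 21.0 times, and Lyz2 gave 6811 of the summed 15479 normalized counts. Summed fibroblast markers (8 genes, none at 0) were 1.25, 3.24 and 2.34 times the vehicle mean. The fibroblast sum was carried by Dcn, and the other 7 genes, summed without it after the values were seen, stood at 1.31, 1.26 and 1.28 times. Of the 8, 4 were above and 2 below the vehicle range in replicate 2, and 5 above and 1 below it in replicate 3. Endothelial markers (8 genes, none at 0) stood at 1.53, 1.52 and 1.96 times, and atrial markers (4 genes, none at 0) at 2.89, 0.745 and 1.40 times. All 8 endothelial genes were above the vehicle range in replicate 1. In replicate 2, 5 were above and 1 (Kdr) below it, and in replicate 3, 7 above and 1 (Kdr) below. All 4 atrial genes were above the range in replicate 1, and only Nppa lay outside it in replicate 2, below. In replicate 3, 3 of the 4 were above it. The part of these shifts in the clock values was not tested. In bulk RNA, fewer cells of a type and less RNA per cell cannot be told apart.

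With all 6 libraries, 0 of the 10 clock genes passed a Benjamini-Hochberg adjusted p of 0.05 in limma, where 0% of all tested genes passed. At an unadjusted p under 0.05 there was 1 clock gene, Cry1, against 35.9% of all genes tested. The 3 doxorubicin values lay wholly outside the vehicle range in 1 of the 10, again Cry1, which was higher; this was so for 41.8% of all genes, 19.2% being higher and 22.6% lower. Log2 fold changes, the doxorubicin mean of log2(value + 1) less that of vehicle and so understated for low genes, ran from -1.09 for Dbp to 1.79 for Per2. Their median was 0.01, beside -0.00462 for all genes tested, with 5 positive and 5 negative.

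**Figure D1:**
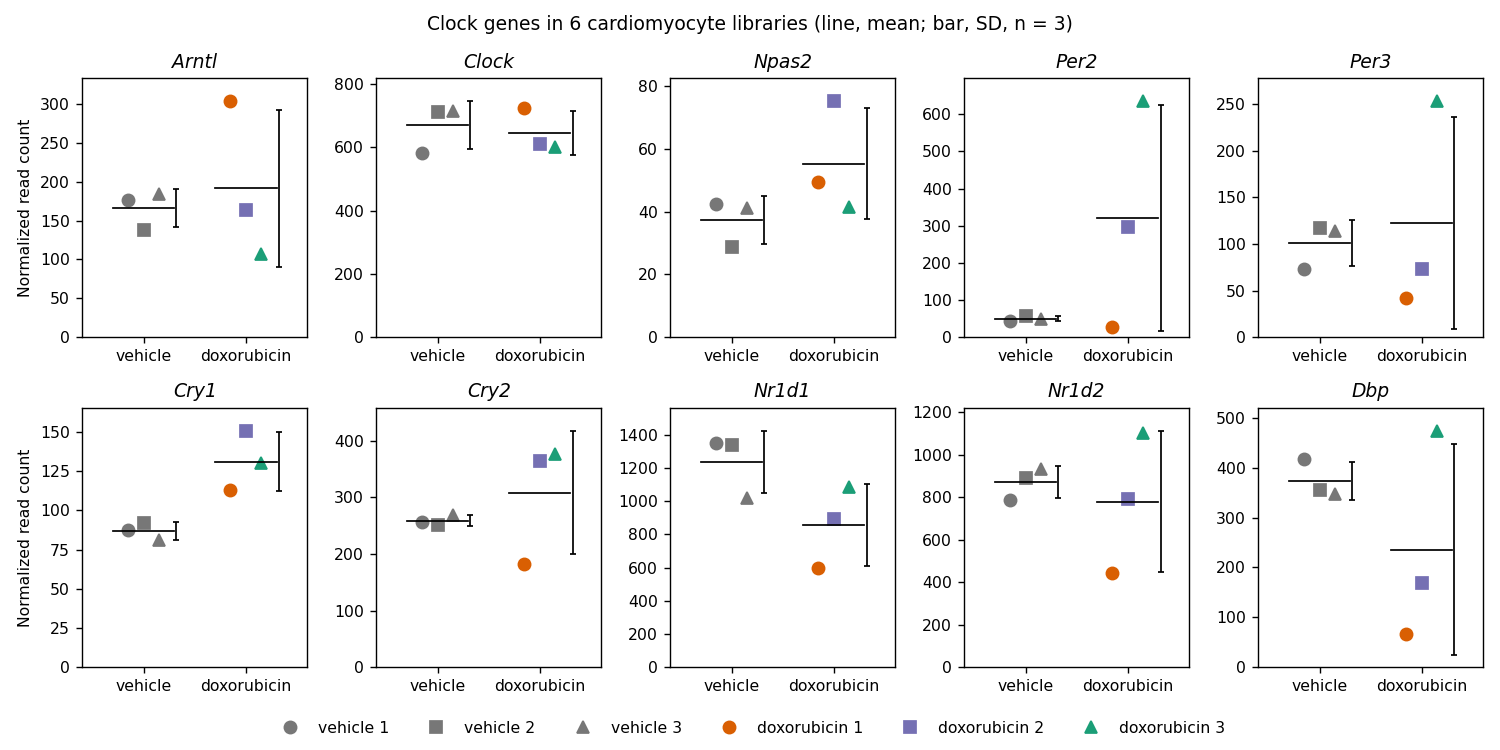
Normalized read counts of the 10 clock genes (y axes from 0, one scale per gene) in 3 vehicle and 3 doxorubicin libraries; horizontal lines are group means and bars the SD over 3 libraries. Arntl is highest and Dbp lowest in doxorubicin replicate 1, the reverse holds in replicate 3, and in Cry1 every doxorubicin point lies above every vehicle point.

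The activator genes came first. Arntl (chromosome 7, 113178471 to 113314126, GRCm38) held 177, 138 and 184 normalized counts in the vehicle mice, in order of replicate number, and 303, 164 and 107 in the doxorubicin mice. Doxorubicin replicate 1 was thus above, replicate 2 within and replicate 3 below the vehicle range. The group means were 166 ± 24.5 and 191 ± 101 (SD, n = 3 each), and the log2 fold change of 0.08 (SE 0.35) had an adjusted p of 0.888 in limma. The doxorubicin mice differed from each other up to 2.83-fold and the vehicle mice up to 1.33-fold.

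Clock (chromosome 5, 76209868 to 76305603), the usual partner of ARNTL, was the steadiest of the 10. It stood at 582, 711 and 714 in vehicle and 726, 611 and 602 in doxorubicin libraries, which differ by -0.05 on the log2 scale (SE 0.16, 95% interval -0.41 to 0.32, limma adjusted p 0.839). Its groups overlapped, with only doxorubicin replicate 1 outside the vehicle range, by a small margin. Npas2 (chromosome 1, 39193702 to 39363240), which can take the place of CLOCK, was low throughout, at 42.5, 28.7 and 41.2 in vehicle and 49.5, 75.0 and 41.4 in doxorubicin libraries. Its highest value was in doxorubicin replicate 2, while replicate 3 lay within the vehicle range. Its groups differed by 0.53 on the log2 scale (SE 0.29, limma adjusted p 0.228), and about 28 to 30 reads lay behind its thinnest values.

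The period genes encode parts of the repressor complex, and Per2 spread most of the 10 clock genes over the doxorubicin libraries. Per2 (chromosome 1, 91415977 to 91459351) held 44.2, 56.2 and 49.0 normalized counts in vehicle libraries and 27.4, 297 and 634 in doxorubicin libraries. Replicate 1 was below every vehicle library, while replicates 2 and 3 were 5.96 and 12.7 times the vehicle mean. The log2 fold change of 1.79 (SE 0.99, 95% interval -0.52 to 4.11) did not pass, at an adjusted p of 0.224 in limma. About 26 reads lay behind the lowest value, whose 95% Poisson interval of 17.9 to 40.1 normalized counts ended below the lowest vehicle value. The interval of that vehicle value, 34.6 to 56.1, overlapped it. Intervals of this kind cover counting error only.

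Per3 (chromosome 4, 150997018 to 151044707), the gene with a pair of D-boxes shown above, held 72.9, 117 and 114 in vehicle and 42.1, 72.6 and 253 in doxorubicin libraries. Replicate 1 was lowest of the 6, replicate 3 was highest, and replicate 2 stood barely under vehicle replicate 1. The mean difference was -0.11 on the log2 scale (SE 0.59, limma adjusted p 0.912), of the other sign when libraries were scaled to equal totals (0.19).

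The cryptochrome genes encode the other repressor subunits. Cry1 (chromosome 10, 85131700 to 85185054) held 87.4, 92.2 and 81.1 in vehicle and 113, 150.2 and 130.0 in doxorubicin libraries. Every doxorubicin value exceeded every vehicle value, which no other member showed. From 86.9 ± 5.54 to 131 ± 18.7 (SD, n = 3 each) the log2 fold change was 0.58 (SE 0.17, 95% interval 0.18 to 0.98), with an adjusted p of 0.0859 in limma. Cry2 (chromosome 2, 92403646 to 92434085) held 256, 251 and 269 in vehicle and 182, 364 and 376 in doxorubicin libraries. Its vehicle values lay close together, replicate 1 was below all of them, and replicates 2 and 3 were above. The log2 fold change was 0.18 (SE 0.28, limma adjusted p 0.667).

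The REV-ERB genes, the most abundant of the 10, were lowest in doxorubicin replicate 1. Nr1d1 (chromosome 11, 98767932 to 98775377) held 1348, 1337 and 1022 in vehicle and 596, 890.4 and 1084 in doxorubicin libraries. Replicates 1 and 2 were under the vehicle range, and replicate 3 was within it. The log2 fold change was -0.56 (SE 0.24, 95% interval -1.13 to 0.01, limma adjusted p 0.144). Nr1d2 (chromosome 14, 18204056 to 18239106) held 787, 893 and 934 in vehicle and 442, 792 and 1103 in doxorubicin libraries. Here replicate 1 was below, replicate 2 within and replicate 3 above the vehicle range. Its mean difference of -0.25 on the log2 scale (SE 0.31, adjusted p 0.577 in limma) became 0.05 at equal totals.

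Dbp (chromosome 7, 45705100 to 45710203), an output gene with a strong daily rhythm in many tissues, held 418, 355 and 348 normalized counts in vehicle and 66.9, 168 and 473 in doxorubicin libraries. The vehicle mice differed 1.20-fold at most and the doxorubicin mice 7.06-fold. Replicate 1 was 5.58 times lower than the vehicle mean, whereas replicate 3 was above every vehicle library. From 374 ± 38.7 to 236 ± 211 (SD, n = 3 each) the log2 fold change was -1.09 (SE 0.60, 95% interval -2.49 to 0.32, limma adjusted p 0.225).

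Per kilobase of transcript (median annotated protein-coding length), the vehicle levels in normalized counts per kb were ordered Nr1d1 (454 ± 68.0, SD, n = 3), Nr1d2 (323 ± 28.1), Dbp (298 ± 30.9), Clock (89.5 ± 10.1), Cry2 (84.3 ± 3.11), Arntl (60.9 ± 8.96), Cry1 (54.3 ± 3.46), Per3 (16.9 ± 4.10), Npas2 (15.9 ± 3.23) and Per2 (8.54 ± 1.04). Nr1d2 and Dbp did not differ beyond their spread between mice, nor did Clock and Cry2, Arntl and Cry1, or Per3 and Npas2. That spread leaves out any error of the lengths, such as 1601.5 bases for Cry1 and 2731 for Arntl. These are medians over all annotated protein-coding transcripts of a gene, short ones included, so order and likeness between genes are approximate. The mean level per kb of Per2 in doxorubicin libraries, 54.8, was above that of Npas2 (23.4) and of Per3 (20.4).

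In the RefSeq annotation, Nr1d1 shares 1075 bases with Thra, a thyroid hormone receptor gene, and Dbp shares 741 bases with Sphk2, a sphingosine kinase gene. Whether counting used strand is not given, so reads from the shared bases cannot be assigned with certainty. Thra held 961, 855 and 963 normalized counts in vehicle and 872, 825 and 659 in doxorubicin libraries, and Sphk2 223, 196 and 228 in vehicle and 184, 235 and 239 in doxorubicin libraries. Thra was lowest in doxorubicin replicate 3, where Nr1d1 was within the vehicle range, and Sphk2 differed far less between doxorubicin mice than Dbp. Uts2, inside the span of Per3, was listed at 0 in every library.

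Opposition of Arntl and Dbp was read in each library, because their ratio does not depend on how libraries were scaled to each other. Dbp was 2.36, 2.57 and 1.89 times as high as Arntl in the vehicle mice. In doxorubicin replicate 1 the order was turned, with Arntl 4.53 times Dbp. In replicate 2 the genes were about level, at a ratio of Dbp to Arntl of 1.03, and in replicate 3 Dbp was 4.42 times Arntl. On the log2(value + 1) scale, Arntl minus Dbp averaged -1.17 ± 0.23 in vehicle and -0.00322 ± 2.15 in doxorubicin libraries (SD, n = 3 each). The 3 vehicle libraries covered 0.44 log2 units and lay inside the 4.29 units that the doxorubicin libraries covered. Ranked from high to low over the 6 libraries, doxorubicin replicate 1 was first for Arntl and sixth for Dbp, and replicate 3 was sixth for Arntl and first for Dbp. The vehicle libraries and doxorubicin replicate 2 did not follow a strict inverse order. This pair was chosen with its values known, so the ratio is given as a description with no test.

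**Figure D2:**
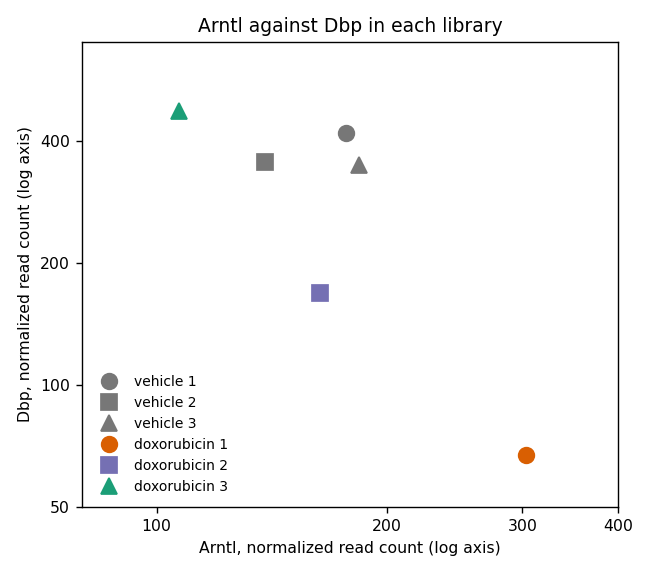
Dbp against Arntl in normalized read counts, both on log axes, with 1 point per library. The 3 vehicle points lie together, while doxorubicin replicate 1 (Arntl 303, Dbp 66.9) and replicate 3 (Arntl 107, Dbp 473) lie at opposite ends.

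The other members were also set against the vehicle range, first in doxorubicin replicate 1. All 10 lay outside the vehicle range there, against 64.0% of all genes tested. The 4 above it (29.4% of all genes were) were Arntl, Clock, Npas2 and Cry1. Cry1 was above the range in every doxorubicin library, so it did not follow Arntl, and neither Clock nor Npas2 was below it in replicate 3. The 6 below it (34.6% of all genes were) were Per2, Per3, Cry2, Nr1d1, Nr1d2 and Dbp. For Clock (672 to 782) and Npas2 (36.4 to 65.8), the 95% Poisson interval in replicate 1 included the highest vehicle value (714 and 42.5). Their side is thus within counting error. The intervals of the other members ended short of the vehicle values, that of Cry1 barely, but vehicle values have counting error too. For Cry1 the interval in replicate 1 (92.3 to 136) overlapped that of vehicle replicate 2 (74.5 to 112). For Per2 (17.9 to 40.1) it overlapped that of vehicle replicate 1 (34.6 to 56.1). The same sides were found when libraries were scaled to equal totals and after quantile normalization. In replicate 3, Per2, Per3, Cry1, Cry2, Nr1d2 and Dbp were above the range (6 of 10, against 42.3% of all genes) and Arntl was below it (1 of 10, against 43.0%). Equal totals placed Arntl within the range and Clock, Npas2 and Nr1d1 above it in that library. In replicate 2, Npas2, Per2, Cry1 and Cry2 were above (4 of 10, against 39.8%) and Per3, Nr1d1 and Dbp below (3 of 10, against 40.3%). Equal totals moved Arntl, Clock and Nr1d2 above the range there, and Per3 and Nr1d1 into it.

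Doxorubicin replicates 1 and 3 stood on opposite sides of the vehicle range in 6 of the 10 genes, Arntl, Per2, Per3, Cry2, Nr1d2 and Dbp. This held for 6.55% of all genes tested. In 5 of the 6 replicate 1 was below and replicate 3 above (3.58% of all genes), and in Arntl the sides were the other way round (2.97%). At equal totals the count was also 6, with Nr1d1 in place of Arntl, against 6.05% of all genes, and quantile normalization gave the 6 genes first named, against 7.35%. This count was chosen after the values were seen, and no test is attached to it. Arntl relative to each of the 9 other members, within a library, was above all vehicle libraries in replicate 1 and below all of them in replicate 3 in 9 of 9 cases. The same was true of Arntl relative to 54.9% of all genes with values above 0 in every library, Arntl itself having its highest and lowest values in those libraries. Replicates 1 and 3 both carried Xist and lacked the Y-linked Ddx3y (1933 and 2093 against 0 and 0 normalized counts), so the sex-linked transcripts did not separate them.

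**Figure D3:**
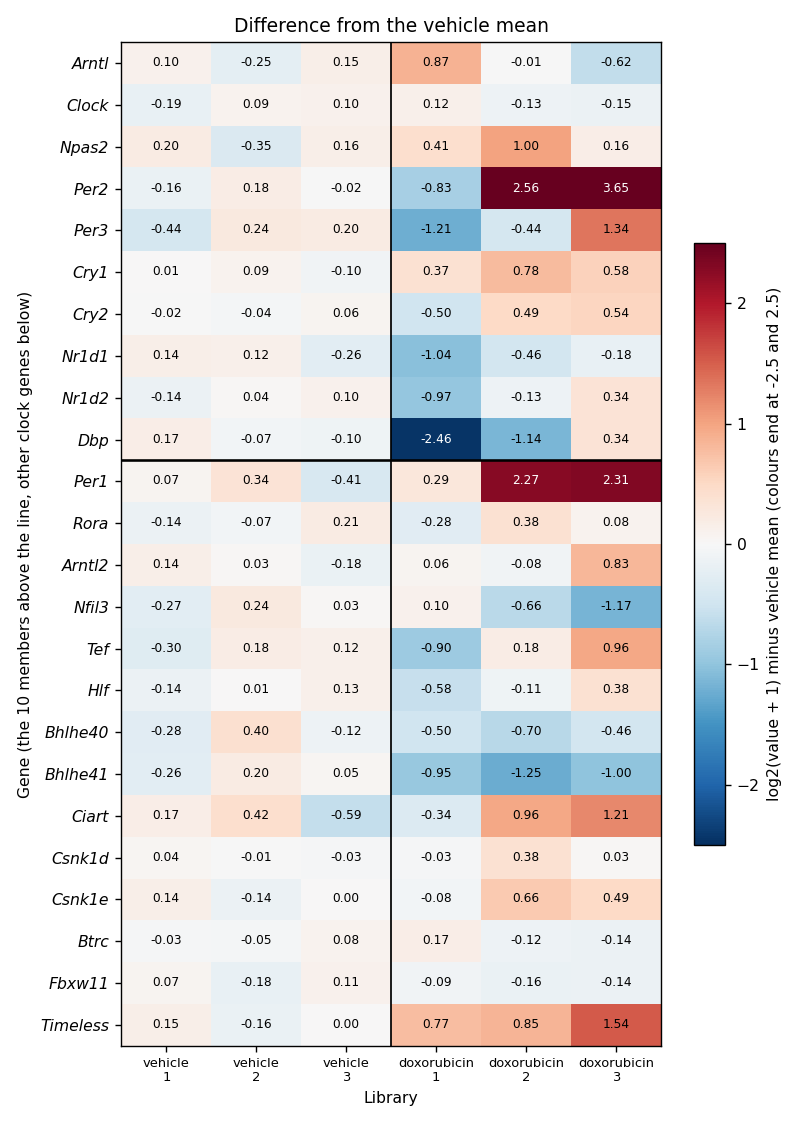
Difference of each library from the vehicle mean, in log2(value + 1), for the 10 members (above the line) and 14 other clock genes (below it); red is higher and blue lower. In doxorubicin replicate 1, Dbp (-2.46), Per3 (-1.21), Nr1d1 (-1.04), Nr1d2 (-0.97) and Tef (-0.90) are blue while Arntl (0.87) is red.

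The spread between doxorubicin mice exceeded that between vehicle mice in 9 of the 10 genes (Clock excepted), against 78.8% of all genes tested. The median SD of log2(value + 1) was 0.17 in vehicle and 0.63 in doxorubicin libraries for the 10 genes, beside 0.16 and 0.33 for all genes. Per2 (SD 2.34), Dbp (1.40) and Per3 (1.31) had a doxorubicin SD above that of 99.2%, 96.9% and 96.4% of all genes. Arntl (0.75) followed at 86.8%, while Cry1 (0.21) and Clock (0.15) lay at 27.1% and 16.7%. In vehicle libraries the SD of Dbp lay at 43.7% and that of Per2 at 52.3%.

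**Figure D4:**
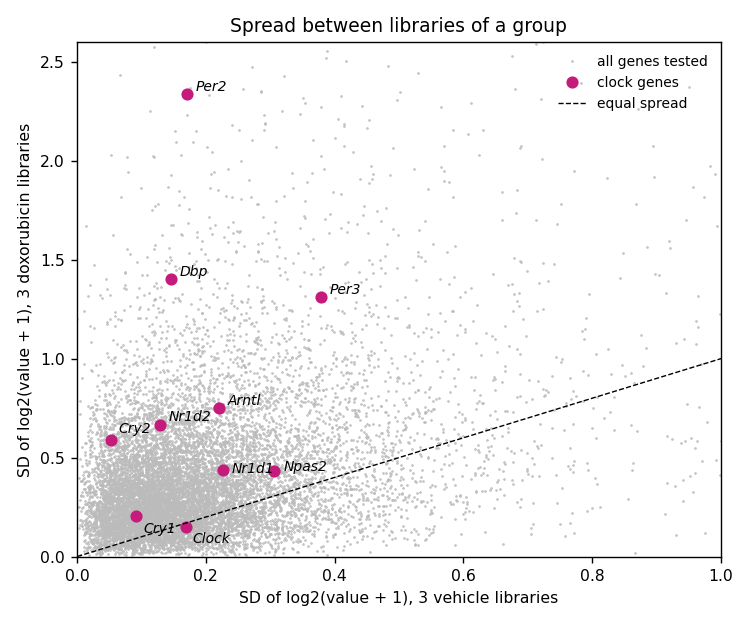
SD of log2(value + 1) over 3 doxorubicin libraries against that over 3 vehicle libraries; grey points are all genes tested (145 lie beyond the axes), large points the clock genes, and the dashed line marks equal spread. Per2, Dbp and Per3 lie far above the line, and Clock just below it.

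Leaving out doxorubicin replicate 1, the doxorubicin library most like vehicle, changed which members passed. This omission was singled out with the values known. Of the fits that each leave out a library it called most genes, 41.1% of those tested, against 0% with every library. Limma then called 3 of the 10 members higher (against 19.3% of all genes) and 0 lower (against 21.8%). Per2 rose by 3.10 on the log2 scale (SE 0.30, adjusted p 0.000366 in limma), Cry1 by 0.68 (SE 0.17, adjusted p 0.0155) and Cry2 by 0.52 (SE 0.14, adjusted p 0.0182). Dbp was then at -0.40 (adjusted p 0.415), Arntl at -0.32 (adjusted p 0.290) and Per3 at 0.45 (adjusted p 0.473), each short of the threshold. Without doxorubicin replicate 3 instead, Dbp was at -1.80, Arntl at 0.43 and Per2 at 0.86. The sign of Arntl thus depended on which of these libraries was left out.

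Of 16 other clock genes, 14 passed the minimum mean (Rorb and Fbxl21 did not), and 0 of the 14 passed the adjusted p of 0.05 in limma with all libraries (4 of 14 at an unadjusted p under 0.05, against 35.9% of all genes). The groups did not overlap in 3 (21.4%, against 41.8% of all genes), Timeless higher and Bhlhe40 and Bhlhe41 lower. The median log2 fold change of the list was 0.07. Tef and Hlf encode the relatives of DBP that bind the same D-box. Tef held 572, 798 and 766 normalized counts in vehicle and 377, 796 and 1374 in doxorubicin libraries. Hlf held 179, 198 and 216 in vehicle and 131, 183 and 257 in doxorubicin libraries. Both were below the vehicle range in replicate 1 and above it in replicate 3, as Dbp was.

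Nfil3, a repressor at D-boxes whose window held a ROR element core, held 129, 184 and 159 in vehicle and 166, 97.7 and 68.5 in doxorubicin libraries. It was within the vehicle range in replicate 1 and below it in replicates 2 and 3. Rora, which encodes an activator at ROR elements, had a log2 fold change of 0.06 (limma adjusted p 0.851). Without doxorubicin replicate 1, Nfil3 fell by 0.92 on the log2 scale (adjusted p 0.0140 in limma).

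Bhlhe40 and Bhlhe41 (DEC1 and DEC2) encode repressors that act at E-boxes. Bhlhe41 held 196, 270.3 and 243 in vehicle and 121, 98.3 and 117 in doxorubicin libraries. All doxorubicin values were below all vehicle values, and they lay close together, unlike those of Dbp. Its log2 fold change was -1.06 (SE 0.18, limma adjusted p 0.0859), and without doxorubicin replicate 1 it fell by 1.12 (adjusted p 0.00280). Ciart, a repressor with 3 E-boxes in its window, was low, at 18.4, 22.0 and 10.5 in vehicle and 12.6, 32.4 and 38.9 in doxorubicin libraries, with replicates 2 and 3 above the vehicle range.

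Timeless, which in mammals serves mainly at replication forks, held 152, 122 and 137 in vehicle and 234, 248 and 398 in doxorubicin libraries (log2 fold change 1.05, SE 0.23, limma adjusted p 0.0859). It was higher in every doxorubicin library. Of the genes that act on PER and CRY proteins, the kinase gene Csnk1e had a log2 fold change of 0.36, Csnk1d of 0.13 and the ubiquitin ligase genes Btrc and Fbxw11 of -0.03 and -0.13. Their limma adjusted p ran from 0.250 to 0.891. Without doxorubicin replicate 1, 3 of the 14 genes rose (Per1, Csnk1e and Timeless) and 2 fell (Nfil3 and Bhlhe41), together 5 of 14 against 41.1% of all genes.

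Per1, the third period gene, behaved unlike Per3. It held 198, 240 and 142 normalized counts in vehicle and 231, 918 and 942 in doxorubicin libraries. Replicate 1 was within the vehicle range and replicates 2 and 3 were far above it, and the groups differed by 1.63 on the log2 scale (SE 0.53, limma adjusted p 0.0878). Without doxorubicin replicate 1, Per1 rose by 2.29 (adjusted p 0.000329). Per1 and Per2 are also known as direct targets of the glucocorticoid receptor, and glucocorticoids are known to set clocks in peripheral tissues.

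A list of 10 glucocorticoid-responsive genes, which also holds Per1 and Klf9, had 9 positive log2 fold changes and a median of 1.41, with 0 past the adjusted p of 0.05 in limma and 6 under an unadjusted 0.05. Of all genes tested, 49.6% had a positive log2 fold change and 35.9% an unadjusted p under 0.05. Relative to the vehicle mean, its median was 0.04, 2.30 and 1.76 log2 units in doxorubicin replicates 1 to 3. Fkbp5, a co-chaperone gene induced by glucocorticoids, held 84.7, 114 and 75.2 in vehicle and 91.7, 1464 and 727 in doxorubicin libraries. Replicate 1 was again like vehicle, and replicates 2 and 3 were far above it. Without doxorubicin replicate 1, 8 of the 10 rose (against 19.3% of all genes). Per2 shared the high values of replicates 2 and 3 and was higher in replicate 3. In the list, Per1 and Sgk1 were also higher in replicate 3, and all other members, Fkbp5 among them, in replicate 2. Whether the glucocorticoid response has a part in the values of Per1 and Per2 was not tested.

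**Figure D5:**
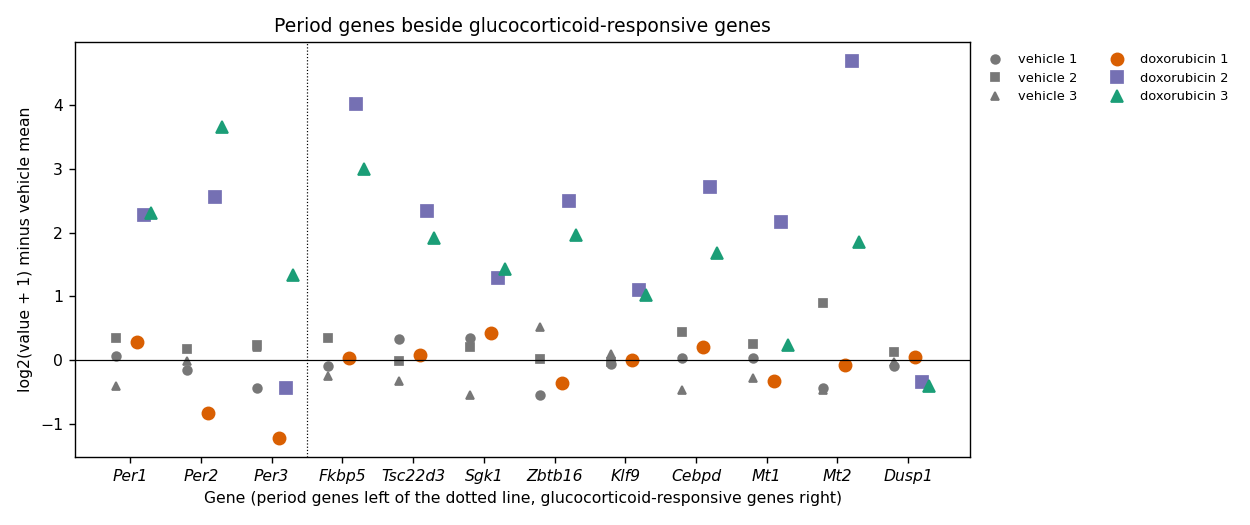
Difference from the vehicle mean in log2(value + 1) for 3 period genes (left of the dotted line) and 9 further genes of the glucocorticoid-responsive list, with 1 point per library. Doxorubicin replicates 2 and 3 are high for Per1, Per2 and Fkbp5, and replicate 1 is low for Per2 and Per3 and near 0 for Per1 and Fkbp5.

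Of 11 genes known as clock outputs in heart or other tissues, 0 passed the adjusted p of 0.05 in limma with all libraries (5 of 11 at an unadjusted p under 0.05, against 35.9% of all genes), and their groups did not overlap in 4 (36.4%, against 41.8% of all genes). These were Klf10 (higher) and Usp2, Kcnip2 and Dgat2 (lower). Usp2, a deubiquitinase gene with a strong daily rhythm, held 723, 862 and 767 in vehicle and 439, 559.5 and 461 in doxorubicin libraries, with every doxorubicin value lower. Kcnip2, which encodes a subunit of the transient outward potassium channel, held 1479, 1501 and 1653 in vehicle and 1198, 569 and 356 in doxorubicin libraries. Its log2 fold change was -1.31 (SE 0.39, limma adjusted p 0.0859). Dgat2, of triglyceride synthesis, had a similar value (-1.16, limma adjusted p 0.0859). Cardiomyocyte markers were also lowest in doxorubicin replicates 2 and 3, as given above, and their part in these values was not tested.

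Klf15, which links the clock to Kcnip2, held 353, 289 and 469 in vehicle and 215, 731 and 391 in doxorubicin libraries. It was below the vehicle range in replicate 1, above it in replicate 2 and within it in replicate 3 (log2 fold change 0.12, SE 0.42, limma adjusted p 0.854). Wee1, the cell cycle kinase gene driven through E-boxes, held 82.0, 102 and 84.0 in vehicle and 53.2, 188 and 149 in doxorubicin libraries. Replicate 1 was below the vehicle range and replicates 2 and 3 above it, the same sides as in Per2 and Cry2. Nampt, of NAD synthesis, differed by -0.16 (SE 0.18, limma adjusted p 0.551), Pdk4 by 0.80 (adjusted p 0.365), Ucp3 by -0.08 (adjusted p 0.940) and Tspan4 by 0.79 (adjusted p 0.176). Without doxorubicin replicate 1, 4 of the 11 rose (Wee1, Klf9, Klf10 and Tspan4) and 3 fell (Usp2, Kcnip2 and Dgat2), together 7 of 11 against 41.1% of all genes.

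Likeness to Arntl and to Dbp was measured as the root mean square difference of log2(value + 1), each gene centred on its mean over the 6 libraries. Outside the lists, the genes closest to Arntl were Setdb2 (0.12), Pafah1b3 (0.13) and Jazf1 (0.14), all of them low in RNA. The genes closest to Dbp were farther from it, Mblac1 at 0.48, Cenpl at 0.51 and Thbs4 at 0.55. These were low as well, with 3.17, 3.19 and 9.50 normalized counts in doxorubicin replicate 1. Within the clock lists, Per3 (0.60), Nr1d2 (0.62) and Nr1d1 (0.63) were closest to Dbp, and Btrc (0.36), Clock (0.40) and Nfil3 (0.42) to Arntl. The measure is not scaled, so a gene that hardly changes can also score as close. Btrc and Clock differed 1.24-fold and 1.21-fold at most between doxorubicin mice, against 2.83-fold for Arntl, so they do not share its pattern in size.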

How the data were processed

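Alignment used STAR within RNAseq Alignment 2.0.2 (BaseSpace) to mm10 with RefSeq genes, followed by RNA-seq Differential Expression 1.0.1, per the labels' protocols. The submitters' processing notes list STAR 2.6.1a and Salmon. How reads were counted, by which strand and with what normalization is not given in the sources used here. What the authors deposited are normalized read counts, a signal with no negative values, 1 column per mouse. Values were used as deposited, with log2(value + 1), a minimum mean of 10 over 6 libraries, and limma 3.58.1 in R 4.3.3 with a mean-dependent prior; tests were two-sided with Benjamini-Hochberg adjustment over all 12477 rows. The test was checked on simulated data with the same SD in both groups, taken from the vehicle libraries. That setting does not cover the larger spread of the doxorubicin libraries. Depth came from the most common low value, taken as 1 read; 80.0% to 92.5% of low values lay within 0.1 of a whole multiple, too few to recover counts. Lengths are from GENCODE M21. Gene coordinates count from 1 (RefSeq, GRCm38.p6, the assembly of mm10).

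Groups and replicate numbers came from the titles. The members, gene lists and tests were chosen with earlier results of these data known. The members were always named, as any tested gene of the clock and output lists could be. The 3 genes closest to Arntl and to Dbp were named too. Of the glucocorticoid and marker lists, the rule allowed up to 3 with the largest change. Kdr, Nppa and Sgk1 were named outside that rule, because their side or order differed from most of their list. A further 3 genes of the lists are not reported here. Alternatives were the pseudocount, filter, scaling, moderation, library weights, a replicate block, sex-linked class and leaving out each library. Figures used matplotlib 3.10.9.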

Additional observations from a re-analysis of the deposited data

How the results depend on the processing

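Library weights and the omission of doxorubicin replicate 1 were the alternatives that changed calls most. Without weights and with every library, limma called 0 genes at each other setting of pseudocount, filter, scaling and moderation, with the class covariate and with the replicate block. Library weights gave 1954 genes higher and 2318 lower, with 2 of the clock members (Per2 and Cry1), 6 other clock genes, 6 clock output genes and 9 glucocorticoid-responsive genes called. Over the 6 fits that each leave out a library, calls ran from 0 to 2409 higher and 0 to 2718 lower, from 0 to 3 clock members, 0 to 5 other clock genes, 0 to 7 clock output genes and 0 to 8 glucocorticoid-responsive genes. All of the highest counts came without doxorubicin replicate 1. Scaling to equal totals moved the median of all genes to 0.29.

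Small log2 fold changes changed sign. Clock went from -0.05 to 0.25 at equal totals and 0.0396 after quantile normalization. Equal totals also turned Per3 (0.19), Nr1d2 (0.0476), Hlf (0.20), Btrc (0.27), Fbxw11 (0.17), Nampt (0.14) and Ucp3 (0.22). Quantile normalization turned Nampt (0.0624), and library weights (0.0445) and the class covariate (0.22) turned Ucp3. Leaving out a library gave ranges that crossed 0 for Arntl (-0.32 to 0.43), Clock (-0.15 to 0.00107), Per3 (-0.83 to 0.45), Cry2 (-0.00439 to 0.52), Nr1d2 (-0.55 to 0.11), Rora (-0.10 to 0.23), Arntl2 (-0.0108 to 0.44), Tef (-0.36 to 0.57), Hlf (-0.35 to 0.14), Csnk1d (-0.00145 to 0.20), Btrc (-0.13 to 0.0208), Klf15 (-0.32 to 0.56) and Ucp3 (-0.51 to 0.72). Per2 (0.86 to 3.10), Cry1 (0.48 to 0.68), Npas2 (0.29 to 0.71), Nr1d1 (-0.75 to -0.32) and Dbp (-1.80 to -0.40) kept their sign. The doxorubicin minus vehicle mean of log2 Arntl minus log2 Dbp, 1.17, ran from 0.08 to 2.23 without single libraries. The cause of these shifts was not tested.

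Whether the replicate numbers pair the mice could not be settled. Same-numbered vehicle and doxorubicin libraries had deviations that correlated at -0.13, 0.03 and -0.09 across genes. Those of different numbers ran from -0.18 to 0.22, so these values cannot decide it. With the replicate block limma called 0 genes, and the adjusted p of Cry1 was 0.135. With the lowest depth at about 3668150 reads, low genes such as Npas2 and Ciart are imprecise.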

Other observations

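Within the libraries that carried Xist (1 vehicle, 2 doxorubicin), the log2 difference between doxorubicin and vehicle was 1.43 for Per2, 1.71 for Per1, 0.57 for Cry1 and -0.96 for Dbp. Within those that carried Y-linked transcripts (2 vehicle, 1 doxorubicin), it was 2.55 for Per2, 2.07 for Per1, 0.74 for Cry1 and -1.19 for Dbp. The Xist values average doxorubicin replicates 1 and 3, which for Per2 (27.4 and 634 normalized counts, against 49.0 in vehicle replicate 3) and Dbp (66.9 and 473, against 348) lay on opposite sides of the vehicle library, so the sign of that mean does not describe both. Arntl (-0.03 and 0.06) and Cry2 (-0.04 and 0.52) differed in sign between the classes. No test was run within a class, each of which has 1 library on one side. With the class as a covariate over the 6 libraries, limma gave log2 fold changes of 1.99 for Per2 (adjusted p 0.242) and -1.08 for Dbp (adjusted p 0.3001).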
